A study of Homo sapiens with 6 samples.

Results

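The B cell receptor signalling cascade was examined as 34 named genes, in RL cells grown as aggregates or in suspension. Probe sets were taken when the platform annotation gave exactly 1 of these symbols, which yielded 96 of the 54675 probe sets on the array, for 33 of the 34 genes. The adaptor gene PIK3AP1 was named by no probe set in the annotation used here and was not analysed. A filter on dim probe sets, set at the 40th percentile of the mean log2 signal (a signal of 53.4), was passed by 83 of the 96 probe sets and by 32 genes. VAV3 had no probe set above it, and each other gene was represented by its brightest probe set.

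RL is an established human B lymphoid line that carries the t(14,18) translocation, in both groups alike. In the group called MALC the cells had grown as multicellular aggregates and were collected after 10 days, and in the suspension group they were collected in exponential growth. Neither group was treated. Each group had 3 samples, numbered 1 to 3, with 1 array each. Nothing states that samples of a group were separate cultures, and p-values therefore reflect the spread among the 3 samples, possibly a technical one. Precision is limited by having 3 arrays a group. Both groups derive from a single lymphoma line, and day 10 of aggregation was set against growing cells, so growth state and culture form cannot be told apart. In these bulk samples, fewer cells of a type and less RNA per cell cannot be told apart either.

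The B cell receptor is a membrane immunoglobulin that binds antigen and signals through the paired chains CD79A and CD79B, whose tails carry tyrosine motifs. SRC family kinases phosphorylate these motifs, SYK docks on them, and SYK and BTK act through the adaptor BLNK on the lipase PLCG2, which raises calcium and activates protein kinase C. The signal runs on to NF-kB through BCL10 and MALT1 and to NFAT through calcium, while inhibitory receptors such as CD22 and CD72, phosphatases and CBL ubiquitin ligases restrain it. Many B cell lymphomas depend on this pathway, and BTK is a drug target in them.

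Linear signals had a median of 80.7 to 81.7 on each array. On the first principal component, which held 81.9% of the variance of the probe sets kept, MALC 1 lay at −22.1, MALC 2 and 3 at −48.1 and −51.7, and the suspension arrays between 38.9 and 44. Arrays 2 and 3 correlated at 0.9976 within MALC and 0.9983 within suspension, and array 1 with either of them at 0.9908 to 0.9919, so array 1 stood apart in both groups. The B cell label was borne out by its markers: MS4A1, the gene of CD20, ranged over 11369 to 13524 in MALC, against 10852 to 14374 in suspension. Of 8 listed B cell markers, 7 had a named probe set, and all 7 passed the filter. Their summed signal, of which MS4A1 was the largest part, spanned 30741 to 36315 over MALC arrays, against 30046 to 35896 over suspension arrays. CD79A, CD79B, CD22 and BLK on this list are also members of the cascade. Singly, CD37 and BLK rose and 5 did not pass (28.6% called, against 42.7% of all genes). CD37 had 1760, 2508 and 2989 in MALC, against 1079, 1431 and 1305 in suspension (1.86-fold, limma adjusted p = 0.0078). PAX5 was lower in MALC without overlap but did not pass (limma adjusted p = 0.16). Markers of other cells were mixed in level. The brightest probe sets of 10 T cell genes summed to 949 to 973 in MALC and 1110.2 to 1167 in suspension, with CD2, TRAT1 and CD8A below the filter. CD247 fell, with 269, 235 and 225 in MALC, against 404, 438 and 381 in suspension (adjusted p = 0.000864), and so did CD28 (log2 change −0.20, adjusted p = 0.0154). Brightest probe sets of 9 myeloid genes summed to 436 to 459 in MALC and 446 to 473 in suspension, with 6 genes below the filter, CD14, LYZ and MPO among them. Those of 10 stromal genes summed to 1566 to 1651 in MALC and 2055 to 2532 in suspension, with COL3A1, PDGFRA, LUM and FAP below it. The brightest of them, THY1, fell, with 880.3, 744 and 754 in MALC, against 1289.8, 1207 and 1308 in suspension (1.59-fold lower, adjusted p = 0.000976). The collagen genes COL1A2 and COL3A1 were high on suspension 2, at 347 and 174, where the MALC arrays had 46.0 to 54.2 and 19.5 to 24.2. The T cell and stromal sums did not overlap between the groups, with much of each gap from CD247 and THY1. Other genes of these lists differed from that. CD3D, CD3E, CD3G and ZAP70 overlapped, and LAT was the higher in MALC, at 243.2 to 264.7 against 226.4 to 242.8. COL1A1, DCN and ACTA2 overlapped as well, and the mean of ACTA2 was the higher in MALC, at 196 against 145. The part of these transcripts in the results was not tested.

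Promoter windows were read from RefSeq (GRCh38.p14, from 250 bases before to 50 bases after the start of each gene), where 29 of the 34 members matched. The windows of both strands were searched for 9 motifs of factors known from B cells or from low oxygen. The PU.1 and SPI-B motif GAGGAAGT was present in 6 of 29 member promoters (20.7%) and in 2.59% of 35116 promoters. It lay in BANK1, INPP5D and RASGRP3, which rose in MALC, and in BTK, VAV1 and PTPN6, which did not pass. The E protein motif CAGGTG was in 37.9% of members and 20.6% of all promoters, the NFAT motif TGGAAA in 17.2% and 20.7%, and the hypoxia response element ACGTG in 6.90% and 21.4%. The EBF1 motif CCCNNGGGA was in 6 of 29 member promoters (20.7%) and 8.86% of all, and with a T required in front of it in 1 member (3.45%) and 1.21% of all. The octamer ATGCAAAT was in 1 member promoter (3.45%) and 1.77% of all. The RUNX motif TGTGGTT, the FOXO motif GTAAACA and the NF-kB motif GGGACTTTC matched in 0 of the 29, and in 4.27%, 3.42% and 0.387% of all promoters. No PU.1 and SPI-B match overlapped a match of another motif. A match describes letters in the window and does not show binding. The 250 bases before the start are shown, 5′ to 3′ on the strand of the gene, for 5 members with this motif before their start, with the motif on either strand in capitals. BANK1 (chr4:101790480-101790729, plus strand), INPP5D (chr2:233060092-233060341, plus strand) and RASGRP3 (chr2:33436098-33436347, plus strand) are members that rose, and BTK (chrX:101390797-101391046, minus strand) and VAV1 (chr19:6772458-6772707, plus strand) are members that did not pass.
BANK1: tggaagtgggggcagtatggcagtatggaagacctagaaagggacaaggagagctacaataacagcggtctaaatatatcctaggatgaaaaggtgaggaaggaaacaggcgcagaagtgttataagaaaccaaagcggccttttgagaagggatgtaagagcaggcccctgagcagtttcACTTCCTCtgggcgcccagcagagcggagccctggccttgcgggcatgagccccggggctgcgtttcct
INPP5D: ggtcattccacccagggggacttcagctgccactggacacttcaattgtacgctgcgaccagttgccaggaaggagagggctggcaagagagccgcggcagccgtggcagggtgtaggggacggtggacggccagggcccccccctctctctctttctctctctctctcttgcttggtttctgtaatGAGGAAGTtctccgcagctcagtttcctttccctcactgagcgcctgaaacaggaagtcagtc
RASGRP3: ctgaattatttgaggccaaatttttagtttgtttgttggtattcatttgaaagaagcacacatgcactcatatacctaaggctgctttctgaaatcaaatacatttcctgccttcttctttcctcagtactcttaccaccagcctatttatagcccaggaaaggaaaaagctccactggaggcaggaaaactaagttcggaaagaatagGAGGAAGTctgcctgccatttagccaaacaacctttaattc
BTK: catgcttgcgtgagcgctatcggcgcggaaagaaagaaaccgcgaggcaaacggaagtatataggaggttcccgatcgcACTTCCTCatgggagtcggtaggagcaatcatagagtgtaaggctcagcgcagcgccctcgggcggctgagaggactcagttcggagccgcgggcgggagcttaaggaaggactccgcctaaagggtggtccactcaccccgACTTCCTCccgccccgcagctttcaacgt
VAV1: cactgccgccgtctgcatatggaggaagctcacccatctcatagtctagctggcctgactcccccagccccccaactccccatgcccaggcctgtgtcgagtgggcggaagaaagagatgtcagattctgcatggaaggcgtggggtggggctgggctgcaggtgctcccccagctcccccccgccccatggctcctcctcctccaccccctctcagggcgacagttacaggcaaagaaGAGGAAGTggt
BTK holds the motif at 2 places in this window, the other 4 genes at 1 place each.

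The comparison asked how transcripts of the cascade differed in aggregates from suspension culture. Of the 32 genes tested, 14 rose, 1 fell and 17 did not pass at an adjusted p of 0.05 (limma, Benjamini-Hochberg over all 13765 genes tested). The rises were BANK1, CD72, CBLB, NFATC1, SYK, DAPP1, INPP5D, BLK, CBL, DOK3, NFATC2, BLNK, BCL10 and RASGRP3, and the fall was GRB2. Changes were small, since 2 of the rises reached 1.5-fold, BANK1 at 1.59-fold and CD72 at 1.59-fold. Over all genes tested 42.7% were called, 19% higher and 23.7% lower in MALC. Among members 46.9% were called, close to that background, but 43.8% rose and 3.12% fell. The groups did not overlap in 18 members of 32, against 56.9% of all genes. The median log2 change was 0.19 over members and −0.06 over all genes.

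**Figure D1:**
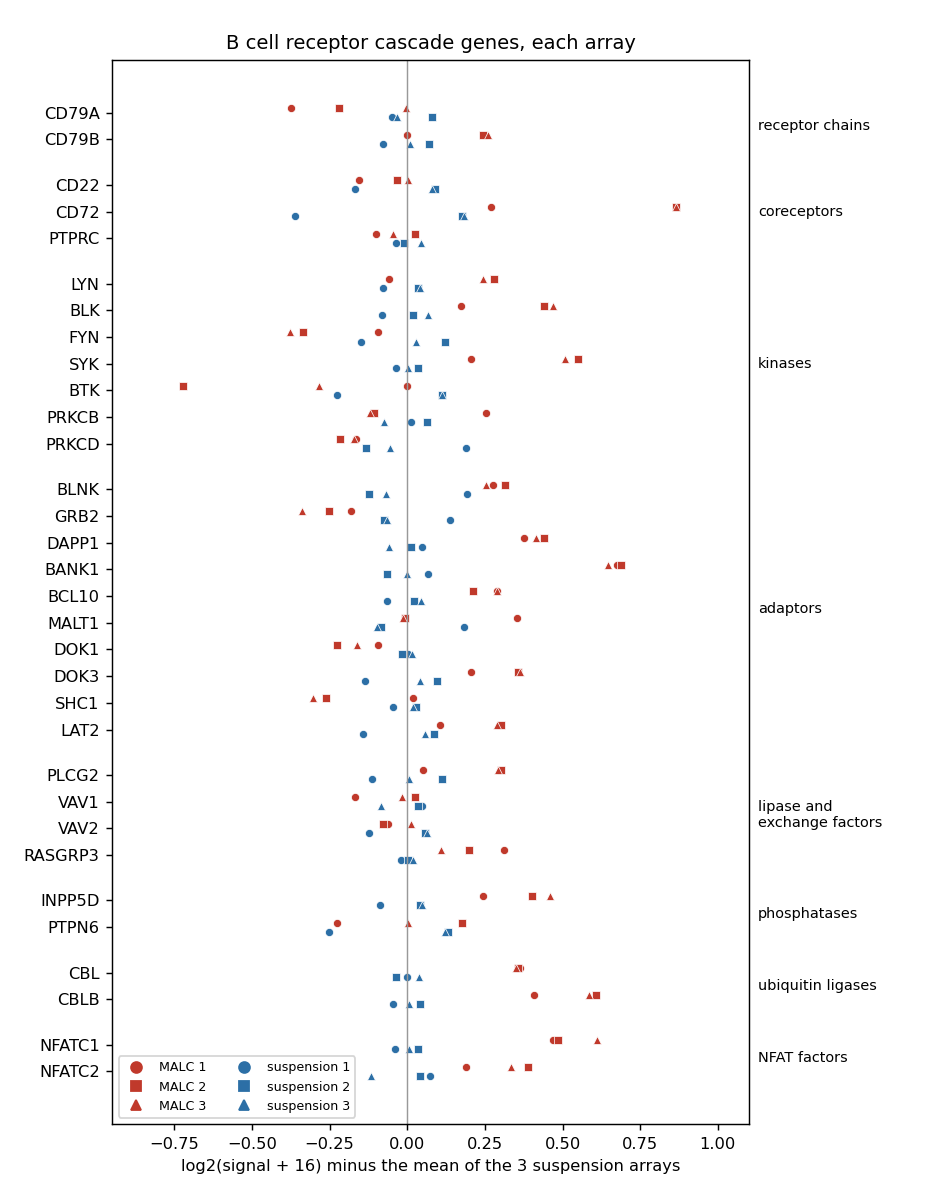
Log2(signal + 16) of each member on each array, minus the mean of the 3 suspension arrays (x axis), for the 32 genes tested, ordered by role. Each point is 1 array, red for MALC and blue for suspension, with the shape giving the sample number. For BANK1, CBLB and NFATC1 all MALC points lie to the right of all suspension points, while those of CD22, PTPRC and VAV1 mix.

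How many members rose depended on single arrays. The rises numbered 8 without MALC 2, 8 without MALC 3, 9 without suspension 2, 11 without suspension 1 or suspension 3, and 17 without MALC 1. Over all genes the rises ran from 1880 to 2859 as each array was left out. Without MALC 1 the MALC group was samples 2 and 3, which correlated at 0.9976. P-values of that setting thus reflect the spread between near-alike arrays, which may not be separate cultures. The 7 genes SYK, DAPP1, BANK1, INPP5D, CBL, CBLB and NFATC1 passed whichever single array was left out. The share of all genes that passed in every such setting was not counted, so no background stands beside these 7. With arrays 2 and 3 of each group averaged into 1 sample, an alternative chosen after seeing the data, BANK1, CBLB and NFATC1 still passed. These were 3 of 32 members, beside 1231 of 13772 genes that rose in that setting, a like share. The falls of members numbered 0 there (1 at an unadjusted p under 0.05 in limma), beside 1113 of all genes. The falls numbered 5 without MALC 1 and 0 without MALC 2 (1 at an unadjusted p under 0.05). Over all genes the falls ran from 2113 to 3632 as each array was left out.

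Neither receptor chain passed the test (limma; 0 of 2 also at an unadjusted p under 0.05). CD79A had signals of 2516, 2806 and 3261 in MALC samples 1 to 3, against 3162, 3457 and 3197 in suspension. The MALC values of CD79A lay mostly below those of suspension, with MALC 3 inside their range (log2 change −0.20, 95% interval −0.43 to 0.03, adjusted p = 0.134), and the gene passed as a fall with array weights (adjusted p = 0.0111) and without MALC 3 (0.0339). CD79B had 5763, 6824 and 6909.8 in MALC and 5461, 6049.5 and 5804 in suspension. Here MALC 2 and MALC 3 were above all suspension values and MALC 1 was not (log2 change 0.17, 95% interval −0.02 to 0.35, adjusted p = 0.127). Blocking on the sample number made CD79B pass as a rise (adjusted p = 0.0319), as did leaving out MALC 1 (0.00652). In the fit over probe sets, both dimmer CD79B probe sets rose (log2 changes 0.41 and 0.38), with signals of 118 to 154 and 128 to 167 in MALC, against 95.5 to 105 and 106 to 110.4 in suspension.

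Of the 3 coreceptors, the inhibitory lectin receptor CD72 rose (33.3%, against 19% higher among all genes tested). Its signals were 1585, 2408 and 2404 in MALC and 1019.5, 1488 and 1494 in suspension. Array 1 was the lowest of its group on both sides, and MALC 1 lay just above suspension 2 and 3, so the groups did not overlap (log2 change 0.67, SE 0.20, adjusted p = 0.0319). Within each sample number CD72 was higher in MALC, but CD72 did not pass once MALC 2 (adjusted p = 0.113), MALC 3 (0.105) or suspension 1 (0.0846) was left out. CD22, a lectin receptor that recruits the phosphatase PTPN6, had 2965, 3232 and 3312 in MALC, against 2939.7, 3519.6 and 3491 in suspension, with overlapping groups (95% interval of the log2 change −0.26 to 0.14). PTPRC, the CD45 phosphatase that keeps SRC family kinases active, had 6944, 7577 and 7199 in MALC and 7258, 7392 and 7678 in suspension, and its 95% interval of −0.16 to 0.07 was the narrowest among the members.

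Among 7 kinases, SYK and BLK rose and 5 did not pass. Thus 28.6% of the kinases were called, all as rises, against 42.7% called and 19% higher among all genes. The median log2 change of the kinases, 0.01, is the value of PRKCB, whose signal lay near the filter. SYK, the kinase that docks on the phosphorylated receptor tails, had 4133, 5247 and 5103 in MALC, against 3490.5, 3671 and 3586 in suspension. All MALC values of SYK were above all suspension values, and MALC 1 was the lowest of its group (log2 change 0.42, SE 0.09, adjusted p = 0.00862). BLK, a SRC family kinase of B cells, had 1152, 1390.4 and 1420.3 in MALC and 963, 1033 and 1068 in suspension, again without overlap and with MALC 1 the lowest of the MALC values (1.28-fold, adjusted p = 0.019). BLK did not pass when MALC 2 (adjusted p = 0.0795), MALC 3 (0.0693), suspension 1 (0.0521) or suspension 2 (0.0545) was left out.

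LYN, the SRC family kinase that starts both activating and inhibitory signals in B cells, had 1799, 2278 and 2226 in MALC and 1777, 1922 and 1933 in suspension. MALC 1 lay within the suspension values and MALC 2 and 3 above them (adjusted p = 0.24, but 0.0105 without MALC 1). That setting rests on the near-alike MALC 2 and 3, here and for the other genes. FYN, another SRC family kinase, had 388, 326 and 316 in MALC, against 373, 453 and 423 in suspension. MALC 1 again lay within the suspension range, and MALC 2 and 3 below it (log2 change −0.27, adjusted p = 0.0708; 0.0158 without MALC 1, 0.0392 without suspension 1). BTK, the TEC family kinase that acts on PLCG2, was uneven in MALC, with 1639, 988 and 1344, against 1401, 1775 and 1776 in suspension. MALC 2 was the lowest of all 6 arrays and MALC 1 lay between the suspension values (log2 change −0.34, 95% interval −0.76 to 0.09, adjusted p = 0.171). Without MALC 1 the BTK difference passed as a fall (log2 change −0.50, adjusted p = 0.0308). With array weights its log2 change was −0.71 (0.000502), in a setting where 5230 of all 13765 genes fell.

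The protein kinase C genes did not pass. PRKCD, whose kinase restrains B cells, had 486, 469.6 and 485 in MALC and 626, 499 and 526 in suspension, with every MALC value below every suspension value (log2 change −0.18, adjusted p = 0.146). PRKCB, the isoform that links the receptor to NF-kB, was dim, and 1 of its 6 probe sets passed the filter, at 53.4 to 73.9 in MALC and 55.6 to 62.7 in suspension. No level of change can be read from signals so near the filter.

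**Figure D2:**
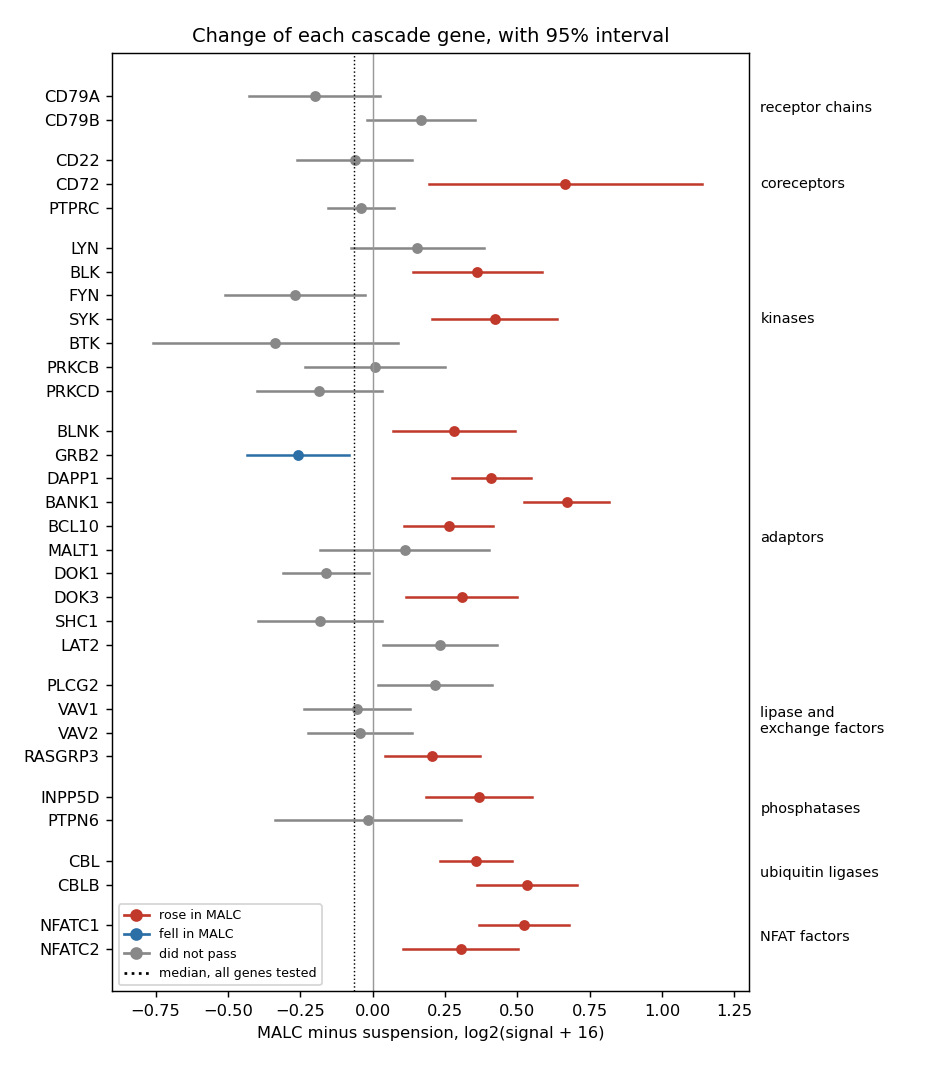
Log2 change, MALC minus suspension, of each of the 32 member genes (x axis, log2(signal + 16) scale) with its 95% interval, ordered by role. Red marks the 14 genes that rose, blue the fall of GRB2 and grey the 17 that did not pass; the dotted line is the median of all genes tested, −0.06.

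Of 10 adaptors tested, 5 rose and 1 fell (60% called, against 42.7% of all genes), with a median log2 change of 0.25. By direction, 50% rose and 10% fell, against 19% and 23.7% of all genes. BANK1, a scaffold of B cells that binds LYN, had 1997, 2016 and 1958 in MALC, against 1304, 1189 and 1244 in suspension. The 3 MALC values of BANK1 lay close together and far above suspension (1990.4 ± 29.2 against 1246 ± 57.8, SD, n = 3 each; log2 change 0.67, SE 0.06, adjusted p = 0.000387). DAPP1, an adaptor that binds the lipid products of PI3 kinase, had 2737, 2866 and 2817 in MALC and 2179, 2125 and 2020.5 in suspension. The groups of DAPP1 were likewise tight and apart (1.33-fold, adjusted p = 0.00147). BLNK, which bridges SYK to BTK and PLCG2, had 2205, 2266 and 2169 in MALC and 2079.5, 1669 and 1731 in suspension. Suspension 1 came near the MALC values of BLNK, and the others lay well below them (1.22-fold, adjusted p = 0.0383). Leaving out any array but MALC 1 or suspension 1 ended the BLNK call (adjusted p 0.0812 to 0.13).

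BCL10, which joins the receptor pathway to NF-kB, had 1327, 1255 and 1326 in MALC, against 1034, 1099 and 1116 in suspension, without overlap (1.20-fold, adjusted p = 0.0152). BCL10 did not pass when MALC 3 (0.0543) or suspension 2 (0.0516) was left out. MALT1, the protease that works with BCL10, had 650.5, 504 and 501 in MALC and 577, 476 and 472 in suspension, where array 1 was the highest of its group on both sides (95% interval of the log2 change −0.18 to 0.40). BCL10 and MALT1 thus differed in their calls, but a difference between their changes was not tested.

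DOK3, an inhibitory adaptor, had 2192, 2436 and 2449.5 in MALC and 1729, 2031 and 1955 in suspension, and every MALC value was the higher (1.24-fold, adjusted p = 0.02). DOK3 did not pass without MALC 2 (0.0818) or MALC 3 (0.0712). Its dimmer probe set did not pass (log2 change 0.17, adjusted p = 0.139 in the limma fit over probe sets). DOK1, a related inhibitory adaptor, had 338, 307 and 322 in MALC, against 362, 358 and 366 in suspension, with every MALC value the lower (log2 change −0.16, adjusted p = 0.0784). DOK1 passed as a fall without MALC 1 (0.0421), with array weights (0.0031) and with quantile normalization (0.0286). LAT2, a membrane scaffold like LAT of T cells, had 3244, 3718 and 3691 in MALC and 2728, 3204 and 3135 in suspension. All MALC values of LAT2 were above all suspension values, by little (log2 change 0.23, adjusted p = 0.0604). It passed as a rise when samples were paired by number (0.00828) or MALC 1 was left out (0.016).

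GRB2, the adaptor that brings SOS to RAS, was the member that fell. It had 4178, 3976 and 3738 in MALC and 5217, 4499.5 and 4527 in suspension, and no values overlapped (log2 change −0.26, SE 0.08, adjusted p = 0.0278). It did not pass when MALC 2 (0.0833), MALC 3 (0.0939) or suspension 1 (0.0519) was left out, nor with the mean of its probe sets (0.117). A second bright GRB2 probe set had 3531, 3474 and 3469.9 in MALC, against 3432, 3433 and 3257 in suspension, a log2 change of 0.05 that did not pass. The dimmest one fell, with 146, 139 and 146 in MALC and 168, 162 and 162 in suspension (log2 change −0.17, adjusted p = 0.0485), so 2 of 3 GRB2 probe sets fell. SHC1, which recruits GRB2, had 2481, 2040.0 and 1984 in MALC and 2372, 2498 and 2480.2 in suspension. MALC 1 lay within the suspension values and MALC 2 and 3 below them (adjusted p = 0.146, but 0.00441 without MALC 1).

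Of the lipase and the exchange factors, 1 of 4 tested genes rose (25%, against 19% of all genes). PLCG2, the lipase that raises calcium, had 8062, 9616 and 9534 in MALC, against 7191, 8415 and 7811 in suspension. The groups of PLCG2 overlapped through MALC 1 (log2 change 0.21, 95% interval 0.02 to 0.41, adjusted p = 0.0757). It passed as a rise when samples were paired by number (0.00679) or MALC 1 was left out (0.00796). RASGRP3, an exchange factor for RAS and RAP, had 2027, 1872 and 1758 in MALC and 1605, 1634 and 1650.1 in suspension. The MALC values were all the higher (1.15-fold, adjusted p = 0.0484), but the call stood at the threshold: it ended when any single array but MALC 3 was left out (adjusted p 0.0664 to 0.128), with no filter (0.06), after median centring (0.0533), and in the fit over probe sets (0.0505). VAV1, the RAC exchange factor of blood cells, had 417, 479 and 464 in MALC and 487, 482 and 443 in suspension, and its relative VAV2 had 664, 656 and 699 in MALC and 636, 723 and 726 in suspension, with overlapping groups in both (95% intervals of the log2 change −0.24 to 0.13 and −0.22 to 0.14). The 3 probe sets of VAV3 stayed below the filter.

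Of the 2 phosphatases, INPP5D rose and PTPN6 did not pass (50% rose, against 19% of all genes). INPP5D, the SHIP1 lipid phosphatase that removes the PI3 kinase product, had 2038, 2277 and 2373 in MALC, against 1618, 1769.7 and 1777 in suspension. No values of INPP5D overlapped, and array 1 was the lowest of each group (1.29-fold, adjusted p = 0.00785). PTPN6, the SHP-1 phosphatase that inhibitory receptors recruit, had 1206, 1601 and 1415 in MALC and 1184, 1550.5 and 1541 in suspension. Sample 1 was low in both groups and the others mixed (95% interval of the log2 change −0.34 to 0.30).

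Both CBL ubiquitin ligases, which mark receptors and kinases for degradation, rose by their brightest probe sets (2 of 2, against 19% of all genes). CBLB had 1877, 2156 and 2124 in MALC, against 1364, 1449 and 1415 in suspension, a 1.45-fold difference with no overlap (SE 0.07 on the log2 scale, adjusted p = 0.00132). CBL had 3132, 3114 and 3101 in MALC and 2428, 2370.4 and 2492 in suspension, and its 3 MALC values were nearly equal (1.28-fold, adjusted p = 0.00173). Of the 5 CBL probe sets tested, 3 rose and 2 did not pass, with log2 changes from −0.10 to 0.36. The dimmer CBLB probe set did not pass (log2 change 0.24, adjusted p = 0.0594 in the limma fit over probe sets).

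Both NFAT factors, which move to the nucleus on calcium signals, rose by their brightest probe sets (2 of 2, against 19% of all genes). NFATC1 had 2016, 2038 and 2226 in MALC, against 1411, 1485 and 1456 in suspension, with the groups well apart (1.44-fold, adjusted p = 0.000965). Of the 5 NFATC1 probe sets tested, 2 rose and 3 did not pass, with log2 changes from −0.21 to 0.52, and with the mean of the probe sets NFATC1 did not pass (log2 change 0.08, adjusted p = 0.272). NFATC2 had 672, 775 and 745 in MALC and 619.6, 606 and 541 in suspension, without overlap (1.23-fold, adjusted p = 0.0237). Leaving out any array but MALC 1 or suspension 1 ended the NFATC2 call (adjusted p 0.0567 to 0.0952).

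In the fit over all 32768 probe sets kept, 32 of 83 member probe sets rose and 2 fell, against a background of 41.7% called among all probe sets, 21.2% higher and 20.4% lower in MALC. Of 24 members with several probe sets kept, no gene had a rise in 1 probe set and a fall in another. In 4 genes, SYK, DAPP1, BANK1 and INPP5D, every probe set kept rose. Neither count was made over all genes, so whether members differ from other genes in this was not tested. The log2 changes of the 3 BANK1 probe sets lay between 0.64 and 0.73, and those of the 4 DAPP1 probe sets between 0.32 and 0.41. SYK was less even. Its probe set 244023_at had 2039, 2863 and 2859 in MALC, against 951, 723 and 751 in suspension. That difference was 3.14-fold (log2 change 1.65, adjusted p = 0.000394), whereas the other 3 SYK probe sets changed by 0.35 to 0.42 on the log2 scale, a difference between probe sets that was not tested. An INPP5D probe set, 1568943_at, also changed more than the brightest one, with 198, 283 and 305 in MALC and 154, 132 and 121 in suspension (log2 change 0.86, adjusted p = 0.00423). A dimmer LAT2 probe set rose by 0.52 (adjusted p = 0.00119) and a dim FYN probe set by 0.24 (0.0173), where the brightest ones did not pass. The transcript parts these probe sets match were not analysed here.

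**Figure D3:**
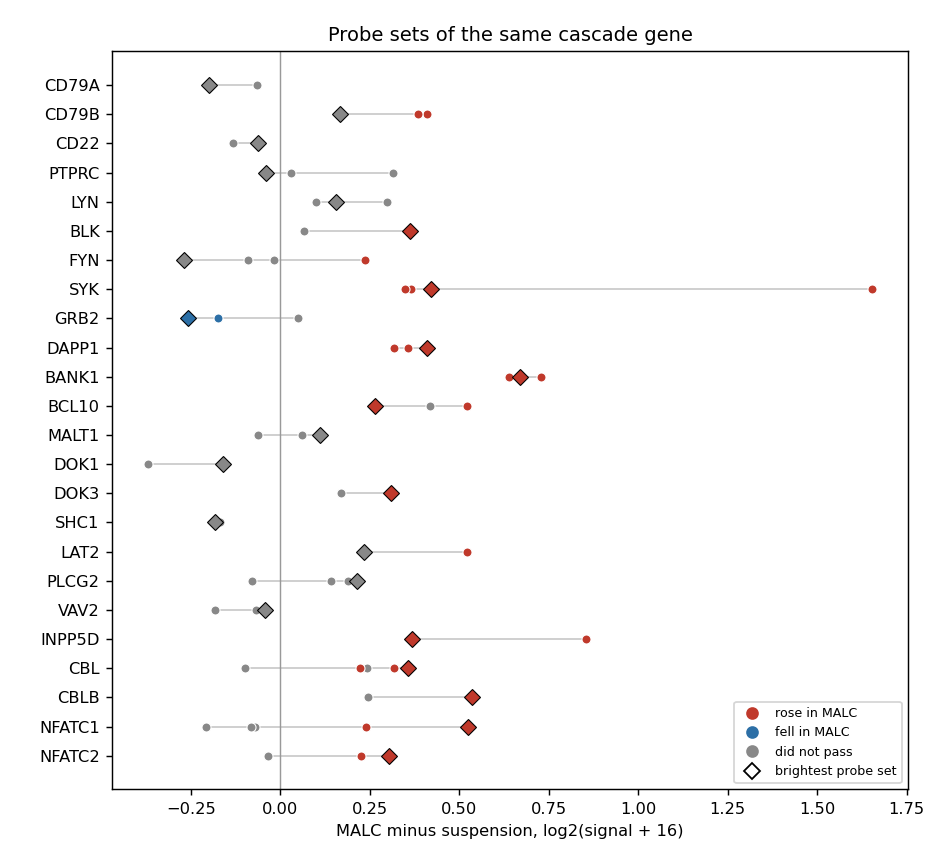
Log2 change, MALC minus suspension (x axis, log2(signal + 16) scale), of every probe set kept for the 24 members that had several. Diamonds mark the brightest probe set of a gene, and colours the call in the fit over probe sets. The 4 DAPP1 and 3 BANK1 points lie close together, while the SYK points run from 0.35 to 1.65 and those of NFATC1 from −0.21 to 0.52.

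Other genes of the pathway were taken from a list of 79, of which 65 were tested. Among these 14 rose and 13 fell, with a median log2 change of 0.07, so that 41.5% were called, against 42.7% of all genes. The largest rises were SOS2, ITPR1, PIK3CD, RAC2 and LCK, and the largest falls FCGR2B, HRAS, CHUK, RAC3 and PAG1. The rises numbered 9 without MALC 2 or MALC 3, and 6 with arrays 2 and 3 averaged, where the falls numbered 3. In the averaged setting, 1231 of all 13772 genes rose and 1113 fell.

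SOS2, a RAS exchange factor that GRB2 carries, had 1511, 1719 and 1767 in MALC, against 753, 762 and 689 in suspension (2.24-fold, adjusted p = 0.000177). ITPR1, a calcium channel of the endoplasmic reticulum that opens on the product of PLCG2, had 359, 369 and 332 in MALC and 119, 193 and 197 in suspension (2.03-fold, adjusted p = 0.00255). PIK3CD, the catalytic PI3 kinase subunit of leukocytes, had 1347, 1522 and 1665 in MALC and 868, 942 and 924 in suspension (1.64-fold, adjusted p = 0.000942). In each of these 3 genes every MALC value was above every suspension value. RAC2, a GTPase that VAV proteins activate, was 1.52-fold higher, and LCK, a SRC family kinase best known from T cells, 1.44-fold higher (adjusted p = 0.00216 and 0.0178). LCK did not pass when MALC 2 (0.0719), MALC 3 (0.0661) or suspension 1 (0.0585) was left out.

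FCGR2B, the inhibitory IgG receptor that recruits INPP5D, had 78.1, 93.2 and 86.0 in MALC, against 277, 227 and 214 in suspension. Every MALC value of FCGR2B was less than every suspension value (2.50-fold lower, log2 change −1.32, SE 0.10, adjusted p = 0.000237), though near-identical FCGR2 genes can share its signal. CHUK, the IKK alpha kinase, had 1149.8, 903 and 807 in MALC and 1599, 1558 and 1605 in suspension (log2 change −0.74, adjusted p = 0.00265). HRAS and RAC3, small GTPases, had log2 changes of −0.78 and −0.57, and PAG1, which anchors the kinase CSK, −0.45 (adjusted p = 0.00491, 0.0051 and 0.00383). CR2, the complement receptor that lowers the threshold of the B cell receptor, followed the sample number: it had 213, 944 and 899.8 in MALC and 122, 672 and 684 in suspension. Sample 1 was low in both groups, and CR2 did not pass (95% interval of the log2 change −1.21 to 2.28, adjusted p = 0.592), but paired by number it passed as a rise (0.00339).

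Of 24 transcripts known to be induced by receptor signalling, 18 were tested, of which 5 rose and 2 fell (38.9% called, near the 42.7% of all genes, of which 19% were higher and 23.7% lower) and the median log2 change was 0.03. GADD45B, a stress sensor, had 1875, 2132 and 2309 in MALC, against 411, 386 and 393 in suspension (5.12-fold, adjusted p = 1.97e-05). Without _s_at and _x_at probe sets a dimmer probe set stood for it and did not pass (log2 change 0.19, adjusted p = 0.115). BCL2A1, a survival gene of the BCL2 family, had 932, 1296 and 1199.6 in MALC and 516, 482 and 487 in suspension (2.25-fold, adjusted p = 0.000496). TNFAIP3, the A20 brake on NF-kB, had 797, 603 and 637 in MALC and 244, 335 and 319 in suspension (2.21-fold, adjusted p = 0.000937). In these 3 genes the groups did not overlap. KLF10, a TGF beta inducible repressor, and JUNB, an AP-1 subunit, rose 1.58- and 1.51-fold (adjusted p = 0.00274 and 0.0058). The falls were FOSB, an AP-1 subunit, with 115, 101 and 87.9 in MALC, against 109, 225 and 242 in suspension (adjusted p = 0.0464), and DUSP2, a MAP kinase phosphatase, with 1077, 915 and 892 in MALC and 1056, 1378 and 1274 in suspension (adjusted p = 0.044, but 0.0605 when paired by number). In both, suspension 1 lay within the MALC range, and each lost its call when any array but MALC 1 or suspension 1 was left out (adjusted p 0.113 to 0.141).

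**Figure D4:**
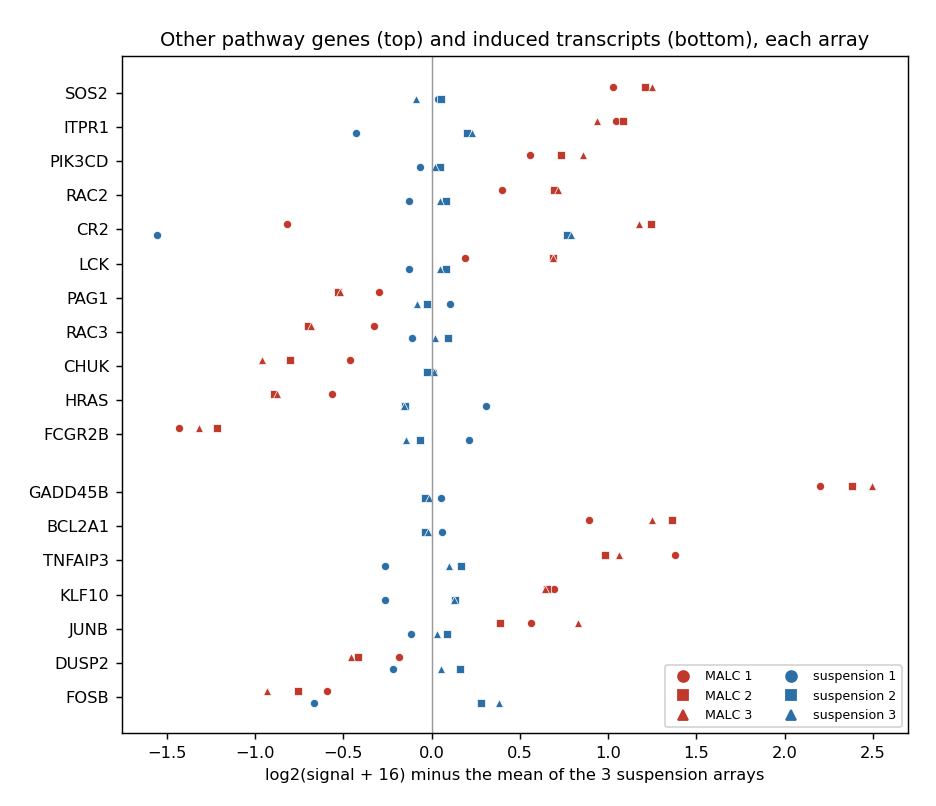
Log2(signal + 16) on each array minus the mean of the 3 suspension arrays (x axis) for 11 other pathway genes and 7 induced transcripts. Each point is 1 array, red for MALC and blue for suspension, with the shape giving the sample number. SOS2 and GADD45B lie far to the right in MALC and FCGR2B far to the left, while in CR2 the circles of sample 1 lie left of the others in both groups.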

How the data were processed

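Total RNA of 6 RL samples was labelled with biotin and hybridised to Affymetrix U133 Plus arrays, per the labels' protocols. The authors deposited 1 linear intensity for each probe set on each array; MAS5 is named in the submitters' processing notes, and background correction and normalization are not given in the sources used here. A shift common to all transcripts would be hidden if the submitters had scaled the arrays to a common level.

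Intensities were set to log2(value + 16), and the 32768 probe sets whose mean reached the 40th percentile were kept, giving 13765 genes by brightest probe set. Leaving controls out, the annotation gave 1 gene for 41091 of 54613 probe sets, several for 1801 and none for 11721; symbols were updated through Entrez identifiers with RefSeq (GRCh38.p14), which held 41037. The comparison used limma 3.58.1 (R 4.3.3), with eBayes and trend, two-sided p-values adjusted by Benjamini-Hochberg over all features and a threshold of 0.05, checked on simulated data. Fold changes are on the log2(value + 16) scale, which understates those of dim genes. Figures were drawn with matplotlib 3.10.9.

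Members, lists, motifs and tests were chosen with earlier results of these data known. Named genes were all members and, of each further list, the 5 largest rises and falls past the threshold plus PIK3CD, CR2 and FCGR2B; list genes with no probe set kept were not analysed here. Probe sets were singled out after their values were seen. Alternatives were a replicate block, each array left out, another pseudocount, filter, normalization or probe set choice, array weights and no trend.

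Both groups number their samples 1 to 3, a numbering that no label explains. Samples with the same number deviated together from their group means (r = 0.245, 0.168 and 0.14). MALC 3 with suspension 2 gave 0.175, however, and MALC 2 with suspension 3 gave 0.14. Samples 2 and 3 were thus not told apart by this check. The main tests were unpaired and used the group only, and the number was a block only in an alternative. Blocked values are given where they changed a call. No array columns were identical.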

Additional observations from a re-analysis of the deposited data

How the results depend on the processing

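With the sample number as a replicate block 17 members were higher and 1 lower in MALC, the added calls being CD79B, LAT2 and PLCG2. Over all genes the block likewise gave more calls than the main test, in both directions, so added calls were not particular to members. Among the named genes as defined above, the block otherwise changed the calls of CR2 and DUSP2. Among member probe sets the total rises were 35. Leaving out 1 array at a time gave 8 to 17 members higher and 0 to 5 lower, 18 to 38 member probe sets higher and 0 to 7 lower, 9 to 18 other pathway genes higher and 9 to 12 lower, 5 to 6 induced transcripts higher and 0 to 5 lower, and 1880 to 2859 of all genes higher and 2113 to 3632 lower. With arrays 2 and 3 of each group averaged (chosen after seeing the data, 2 samples a group) the counts were 3 and 0 members, 7 and 0 member probe sets, 6 and 3 other pathway genes, 5 and 0 induced transcripts, and 1231 and 1113 genes; at an unadjusted p under 0.05 limma had 1 member, 1 member probe set and 0 induced transcripts lower. Array weights gave 6 members, 12 member probe sets, 6 induced transcripts and 5230 genes lower, and 26 other pathway genes higher; the weights were 3.81 for MALC 2 but 0.248 for MALC 1 and 0.29 for suspension 1. Quantile normalization gave 3 members and 6 member probe sets lower, and over all genes it also gave more falls than the main test. With no filter 1 member probe set and 0 induced transcripts were lower (4 at an unadjusted p under 0.05), and without trend 1 induced transcript. Without _s_at and _x_at probe sets 0 of 23 members were lower (0 also at an unadjusted p under 0.05), other pathway genes numbered 8 higher and 8 lower, and induced transcripts 2 higher; fewer genes were tested there. Of 166 recomputed counts, 122 stayed within 1.5 times of the value given above.

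Of 534 recomputed member changes, 443 kept direction and side of the threshold, 44 lost the call, 31 gained one and 16 changed sign. GRB2 and NFATC1 changed sign without _s_at and _x_at probe sets, to 0.049 and −0.071, where other probe sets stood for them. The remaining sign changes were in members that did not pass: CD22 0.000593 and PTPRC 0.000287 after quantile normalization, PTPRC 0.067 with the mean of probe sets, MALT1 −0.062 without _s_at and _x_at probe sets, and PRKCB −0.088, VAV1 0.027 and PTPN6 0.025 with array weights. Leaving out 1 array at a time, the log2 change ran from −0.11 to 0.073 for PRKCB, −0.010 to 0.20 for MALT1, −0.095 to 0.0040 for VAV1 and −0.14 to 0.089 for PTPN6. That of CR2 ran from −0.24 without suspension 1 to 1.21 without MALC 1. The cause of these shifts was not tested. Signals near the filter, as for PRKCB, limit what can be seen.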

Other observations

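Some further genes of the pathway list that passed the test are named here, picked after their values were seen. For each of these genes no block, left-out array or other alternative was computed, so how their calls hold up was not checked. STIM2, a calcium sensor of the endoplasmic reticulum, had 433, 516 and 479 in MALC, against 273, 351 and 362 in suspension (log2 change 0.52, adjusted p = 0.0101). ITPR3, a calcium channel related to ITPR1, had 1752, 2119 and 2189.9 in MALC and 1481, 1635 and 1476 in suspension (log2 change 0.39, adjusted p = 0.0148). ORAI1, the plasma membrane calcium channel that STIM proteins open, fell, with 454, 430.4 and 458 in MALC and 588, 519 and 495 in suspension (log2 change −0.24, adjusted p = 0.0438). AKT1, a kinase that PI3 kinase activates, fell as well (log2 change −0.42, adjusted p = 0.00608). SOS1, like SOS2 a RAS exchange factor, rose by 0.51, and NFATC3, another NFAT factor, by 0.32 (adjusted p = 0.0126 and 0.0102). RELA, the p65 subunit of NF-kB, had 916, 987 and 991 in MALC and 699.9, 715 and 698 in suspension (log2 change 0.44, adjusted p = 0.00172). IKBKG and TRAF6, which act before NF-kB, fell, with log2 changes of −0.40 and −0.27 (adjusted p = 0.0104 and 0.013). Related genes of the list did not pass, among them STIM1, ORAI2, ITPR2, NFKB1, IKBKB, NFKBIA and MAP3K7. The remaining calls of the list were rises of IFITM1, GSK3B, CRKL and GAB2 and falls of RASGRP1, RAC1, CD38 and PTPN11.

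A few induced transcripts, picked after their values were seen, were uneven among the suspension samples. EGR1 had 75.8, 56.0 and 48.2 in MALC, against 59.5, 1218 and 1224 in suspension, and EGR3 had 46.0, 41.3 and 39.0 in MALC, against 35.9, 149 and 172 in suspension. In both genes suspension 1 was as low as the MALC samples, and the comparison did not pass (adjusted p = 0.0596 and 0.0951). CD69, an activation marker, had 454, 293 and 294 in MALC and 32.0, 451 and 463 in suspension, so its low sample was suspension 1 also. Others on the same list were more even there, such as NR4A1 with 292, 286 and 273 and JUNB with 339.8, 393 and 378 in suspension.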
